A study of Pyrus communis with 12 samples.

Results

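The first 7 days of harvest of the European pear cultivar 'Abate Fetel' (Pyrus communis) were described from 6 of the 12 RNA-seq libraries of the series. They are the 3 libraries of stage H1, harvested in week 1 at 120 days after full bloom, and the 3 libraries of stage H2, harvested in week 2 at 127 days, and were taken by these stage labels alone. All 12 libraries came from the peeled flesh (cortex) of fruit picked at 4 stages (H1 to H4, harvest weeks 1 to 4 of the labels) in a single orchard and sampled right after harvest, with no storage and no treatment. By the study's dates H2 and H3 lay further apart than the other neighbouring stages. At each stage the study kept fruit around the most frequent value of a chlorophyll absorbance index, so that a stage is a class of that index as well as a date. The 3 replicates of a stage were biological, but the number of fruit in each replicate is not given in the sources used here. The identifiers of the deposited table carry no gene names, so the flesh could not be checked against marker genes, and names are given only for the genes that the study names.

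Pear is a climacteric fruit, whose ripening goes with a burst of the gaseous hormone ethylene. Ethylene is made from ACC by ACC synthase (ACS) and ACC oxidase (ACO), it is perceived by receptors such as ERS1 and ERS2, and its signal ends in ethylene response factors (ERFs), transcription factors that bind the promoters of ripening genes. Softening follows from enzymes that take the cell wall apart, such as polygalacturonase (PG) and pectate lyases, and the aroma of a ripe pear is largely made of esters, whose synthesis ends with alcohol acyltransferase (AAT). Auxin, the hormone of fruit growth, is known to interact with ethylene at the onset of ripening. In the bulk tissue used here, a larger share of cells of a type and more RNA per cell cannot be told apart.

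The table held 45217 genes, of which 15595 had no count in any of the 6 libraries and 23155 passed a filter of at least 1 CPM (the count of a gene per 1000000 counts of its library) in at least 3 of the 12 libraries. Totals ran from 7778587 to 9201671 counts at H1 and from 7776419 to 8418520 at H2, within 7776419 to 10675582 over the 12 libraries. A floor of 3 counts was worth 0.325 to 0.379 CPM in the 6 libraries, and lower levels were read as not detected. The library of H1 replicate 2 stood apart from the others. Its distance to the other H1 libraries (root mean square difference of log2(CPM + 1) over the genes tested) was 0.47 and 0.49, whereas it was 0.42 between these 2 and 0.39 to 0.40 among the H2 libraries. The distance between an H1 and an H2 library was 0.45 to 0.52, not far above these. The coefficient of biological variation was 16.2% at H1 and 8.74% at H2, against 13.0% over all 4 stages.

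Between H1 and H2 the flesh changed in many genes by small amounts. Differentially expressed genes (DEGs, adjusted p under 0.05 with edgeR's quasi-likelihood test) numbered 1646, or 7.11% of the genes tested. Of these, 912 were higher at H2 (3.94%) and 734 were lower (3.17%). Most of these changes were small, with 1065 of the DEGs (64.7%) under 1.5-fold and a median size of 0.48 on the log2 scale, against 0.15 over all genes tested. The DEGs over 2-fold were 145 higher (0.626% of the genes tested) and 80 lower (0.345%), and 87 and 43 with a filter of 5 CPM, or 134 and 53 without H1 replicate 1. Among the DEGs that the study names, the largest changes were those of ERF2, PG, ACO PCP009685, AAT and HPL, all of them rises. As the plot of fold change against mean level shows, the changes were larger at low levels, where only large changes can pass the test. Their median size was 1.57 on the log2 scale among DEGs of 1 to 5 CPM and 0.30 among those above 1000 CPM. The H1 and H2 libraries did not overlap in 5685 genes (24.6% of the genes tested), among them 1643 of the 1646 DEGs. Leaving out H1 replicate 2 gave 1514 DEGs, of which 1197 were shared with the 1646, and 58.3% of them were higher at H2 in place of 55.4%. Leaving out H2 replicate 1, 2 or 3 gave 985, 1075 and 957 DEGs, respectively, and the 6 libraries of H1 and H2 alone gave 970.

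**Figure D1:**
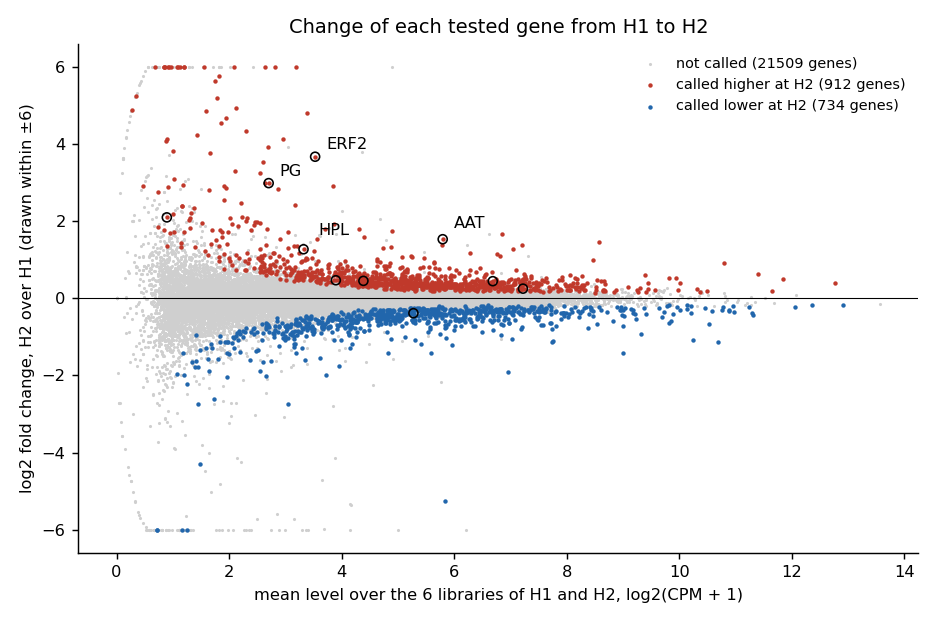
Fold change of each tested gene from H1 to H2 (vertical axis, log2, drawn within 6 on either side) against its mean level over the 6 libraries (horizontal axis, log2(CPM + 1)), with DEGs higher at H2 in red, DEGs lower at H2 in blue, other genes in grey and the 10 study-named DEGs circled. The 912 red and 734 blue genes lie close to the zero line at high levels, and ERF2, PG, AAT and HPL stand well above it.

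The most abundant transcripts fell more often than they rose. Of the 64 tested genes above 1000 CPM, 22 (34.4%) were lower at H2 and 10 (15.6%) were higher, whereas in every class below this level the DEGs higher at H2 were the more numerous. In the lowest class, up to 1 CPM, 20 of 1005 genes were higher and 2 were lower. A gene of this low mean passes the filter only through the few of the 12 libraries in which it reaches 1 CPM. The split of this class is therefore in part shaped by the filter. Among the 100 most abundant genes (754 to 12205 CPM) 31 were lower, 13 were higher and 56 were not DEGs, and the median size of the change of these DEGs was 0.31 on the log2 scale. These 100 genes held 17.7% of the CPM at H1 and 17.1% at H2. Summed over all DEGs, those higher at H2 gained 23645 CPM and those lower lost 28284 CPM. Without H1 replicate 2 the counts among the 100 genes were 28 lower and 14 higher, and without H2 replicate 2 or H2 replicate 3 they were 20 lower and 10 higher and 19 lower and 9 higher. The bars of the plot by abundance show the share of each class that rose and fell.

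**Figure D2:**
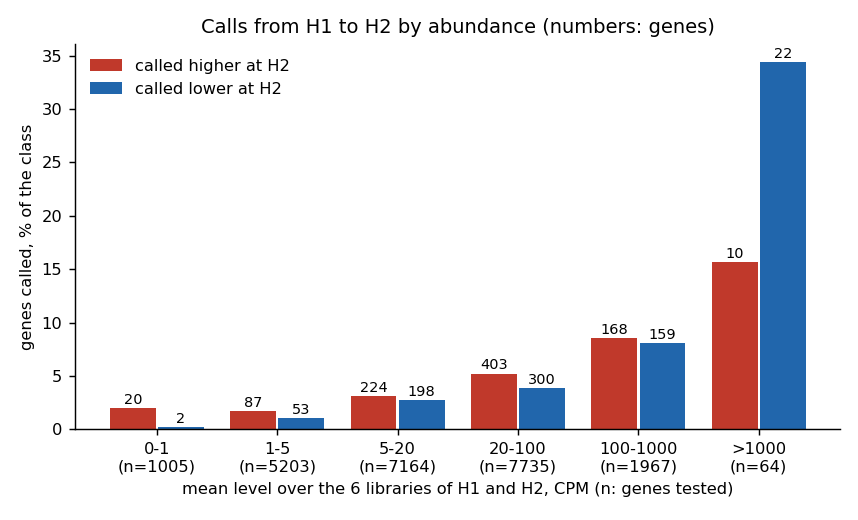
Share of the tested genes called higher (red) or lower (blue) at H2 (vertical axis, %) in 6 classes of mean CPM over the 6 libraries (horizontal axis), with the number of DEGs above each bar. The blue bar exceeds the red bar only above 1000 CPM, where 22 genes were lower and 10 were higher of 64.

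The study names 41 genes of ethylene, auxin, cell wall, aroma and transcription, beside a reference gene, and it chose most of them on these libraries. Their share of DEGs is therefore not independent evidence of a direction. Of the 41, 37 passed the filter, and 9 of them (24.3%) were higher at H2, 1 (2.70%) was lower and 27 were not DEGs, beside 3.94% higher and 3.17% lower over all genes tested. Their median log2 fold change was 0.19 (0.01 with genes not detected at one stage set to their bound), against 0.00 over all genes tested. Without H1 replicate 2 these were 6 higher and 1 lower, and ACO PCP009685, MADS PCP007024 and pectate lyase3 PCP026151 were no longer DEGs. The reference gene of the study for RT-qPCR, PCP030439, was measured at 43.5 ± 1.95 CPM at H1 and 40.9 ± 1.14 at H2 (SD, n = 3), with a log2 fold change of -0.09 ± 0.06 (SE, adjusted p = 0.51, edgeR).

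Within the ethylene pathway ERF2 rose strongly, whereas the ACS genes were hardly detected and neither receptor was a DEG. ERF2 (PCP002056), an ethylene response factor, showed the largest change of all study-named DEGs. Its level was 1.64, 0.975 and 2.0 CPM in the H1 libraries and 20.6, 19.5 and 18.6 CPM in the H2 libraries. The 3 H2 libraries were thus all far above the 3 H1 libraries and close to each other. ERF2 rose 12.7-fold in mean CPM, with a log2 fold change of 3.68 ± 0.24 (SE, adjusted p = 3.5e-06, edgeR), and between 3.41 and 3.91 when any one of the 12 libraries was left out. It did not stay at this level. At H3 its libraries held 1.81, 2.43 and 2.42 CPM, a fall of 3.13 ± 0.22 on the log2 scale (adjusted p = 1.2e-05), and at H4 26.0, 36.3 and 42.2 CPM, a rise of 3.96 ± 0.22 (adjusted p = 2.1e-07). The level of ERF2 therefore rose, fell and rose again over the 4 stages, as the plot of the level per library shows.

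ERF1 (PCP015040), another ethylene response factor of the study's candidates, had 2, 0 and 0 counts at H1 and 14, 12 and 7 counts at H2, and then 4, 0 and 0 at H3 and none at H4. It did not pass the filter and was not tested, and its H2 libraries alone lay above the floor of 3 counts in all 3 replicates. Of the other factors of this group, the AP2/ERF gene PCP014930 was at 0.252, 0.542 and 0.751 CPM at H1 and at 1.32, 1.76 and 1.05 CPM at H2, without overlap, but narrowly missed the threshold (log2 fold change 1.39 ± 0.39 SE, adjusted p = 0.053). It passed only without H1 replicate 3 (adjusted p = 0.042). ERF PCP011831 lay on the opposite side, with 1.64, 2.60 and 2.0 CPM at H1 and 0.602, 1.01 and 1.29 CPM at H2 (-1.10 ± 0.31, adjusted p = 0.0504), and just missed the threshold too. APETALA2 PCP005843, a factor of the same superfamily at a much higher level, was measured at 149 ± 18.9 CPM and 174 ± 5.6 CPM (SD, n = 3), and the difference did not pass the test (adjusted p = 0.16). AP2/ERF PCP027843 had 2 counts in all over the 6 libraries, and the untested AP2 factor PCP016390 had 3 to 11 counts per library.

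Among the genes of ethylene synthesis, 1 of 4 tested genes was a DEG, and it was a weakly expressed one. ACO PCP009685 held 0.505, 0.433 and 0 CPM at H1 and 1.32, 1.13 and 1.75 CPM at H2, which is 4, 4 and 0 counts against 11, 9 and 15. The stages did not overlap, and the log2 fold change was 2.10 ± 0.57 (SE, adjusted p = 0.044, edgeR). This call was lost when any library of H1 or H2 was left out (adjusted p = 0.058 to 0.14) and in 14 of 18 alternative settings in all, while the log2 fold change stayed between 1.56 and 2.54. The more abundant ACO PCP011683 was at 12.4, 13.3 and 10.4 CPM at H1 and at 11.2, 11.2 and 7.83 CPM at H2, with overlapping libraries and a log2 fold change of -0.26 ± 0.26 (adjusted p = 0.65). The 95% interval of that change, -0.76 to 0.24, excludes a rise of 2-fold. ACO PCP022491 had 0, 2 and 0 counts at H1 and 6, 0 and 10 at H2 and was no DEG. The ACS genes, which carry out the step that usually limits ethylene synthesis, were hardly detected: PCP013122 had 3 counts in 1 of the 6 libraries, and PCP011500 had 3 and 5 counts in 2 H2 libraries and none in the other libraries of H1 and H2.

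Neither of the ethylene receptors was a DEG. ERS1 (PCP004450) was measured at 11.4, 9.75 and 10.3 CPM at H1 and at 15.9, 15.4 and 13.9 CPM at H2, all H2 libraries lying above all H1 libraries. Its log2 fold change of 0.53 ± 0.19 (SE) gave an adjusted p of 0.13 with edgeR. ERS1 passed the threshold with the 6 libraries of H1 and H2 alone (adjusted p = 0.040) and without H4 replicate 1 (adjusted p = 0.031), and in none of the other 17 settings. ERS2 (PCP026971) was at 1.98 ± 0.21 CPM at H1 and 2.26 ± 1.13 CPM at H2 (SD, n = 3), since H2 replicate 1 was below all H1 libraries and the others of H2 were above them.

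**Figure D3:**
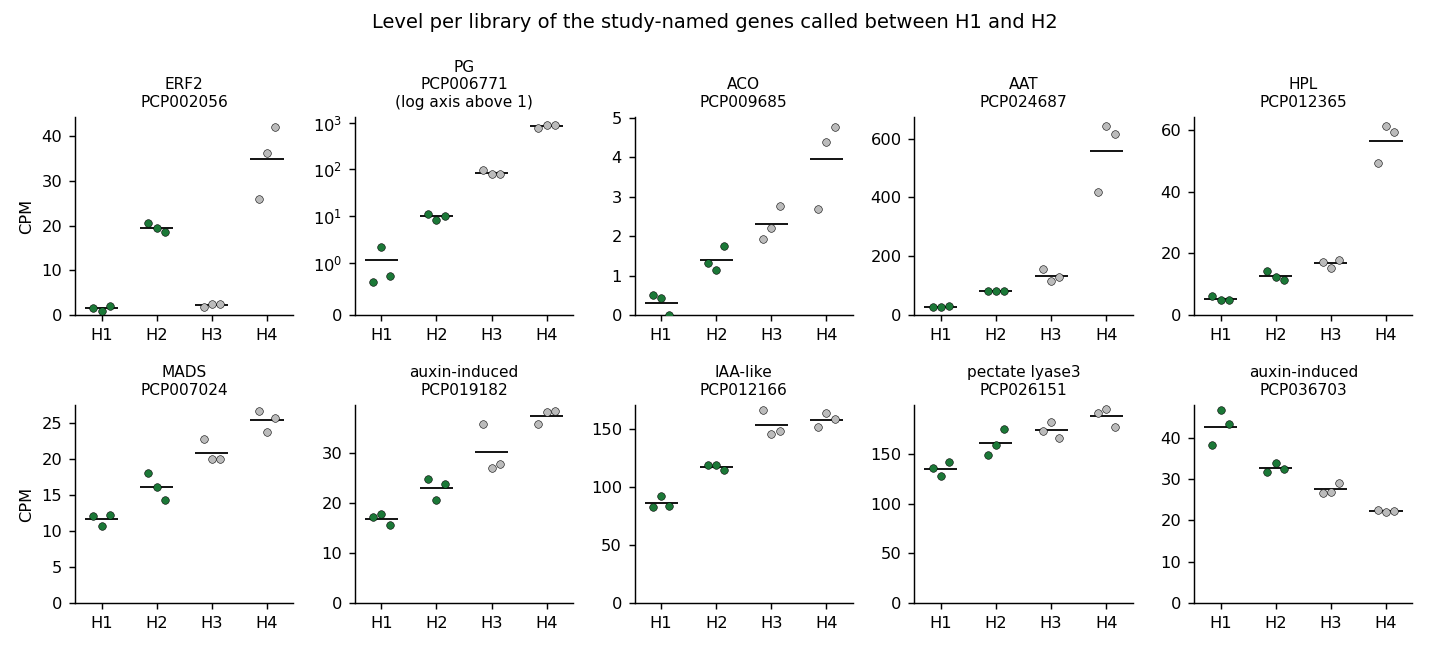
CPM per library (vertical axes, from 0, and for PG logarithmic above 1) at the 4 stages (horizontal axes) for the 10 study-named genes that were DEGs between H1 and H2, in green for H1 and H2 and grey for H3 and H4, with a bar at the mean of 3 libraries. ERF2 is high at H2 and H4 and low at H1 and H3, PG rises at each step from 1.18 CPM at H1 to 840 CPM at H4, and auxin-induced protein PCP036703 falls from stage to stage.

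The cell wall genes were led by polygalacturonase. PG (PCP006771), which cuts the pectin backbone of the middle lamella between cells, was at 0.631, 2.17 and 0.751 CPM at H1 and at 11.2, 8.18 and 10.2 CPM at H2. H1 replicate 2 held the highest level of its stage, and it still lay under every H2 library. PG rose 8.33-fold in mean CPM, with a log2 fold change of 2.99 ± 0.30 (SE, adjusted p = 1.2e-04, edgeR). Without H1 replicate 2 the log2 fold change was 3.81. In counts this start is small, with 5, 20 and 6 at H1 and 93, 65 and 87 at H2. The level then went on to 85.0 ± 11.8 CPM at H3 and 840.1 ± 62.6 CPM at H4 (SD, n = 3), so that the step of the first week was 2.99, that of H2–H3 was 3.10 ± 0.17 and that of H3–H4 was 3.31 ± 0.14 on the log2 scale. H2–H3 was the longest of these intervals by the study's dates, so the steps do not cover equal times.

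Of the other wall genes only 1 was a DEG in the same week. Pectate lyase3 (PCP026151), which cleaves unesterified pectin, was at 136, 129 and 142 CPM at H1 and at 149.5, 159 and 176 CPM at H2. The libraries did not overlap, but the rise was small (log2 fold change 0.25 ± 0.07 SE, adjusted p = 0.043, edgeR). This call was lost in 12 of 19 alternative settings, including those without H1 replicate 1 or 2 or H2 replicate 2 or 3 (adjusted p = 0.099 to 0.18). A xyloglucan endotransglucosylase hydrolase (PCP016523), of the family that cuts and rejoins the xyloglucan chains, was at 37.2 ± 3.82 CPM and 41.8 ± 3.42 CPM (adjusted p = 0.29). The expansin-like genes PCP039813 and PCP023195, of a family of proteins that loosen the wall without cutting it, were at 3.11 ± 0.76 and 2.11 ± 1.05 CPM at H1 and at 1.97 ± 0.15 and 1.58 ± 0.67 CPM at H2, and neither was a DEG (adjusted p = 0.29 and 0.80). The libraries of PCP039813 did not overlap, but its log2 fold change of -0.66 ± 0.32 (SE) had an unadjusted p of 0.063 with edgeR.

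A pectate lyase (PCP016914) showed how far replicates of a stage can part. It had 220, 116 and 0 counts in the H1 libraries and 51, 42 and 44 in the H2 libraries, so that one H1 library lay below and the others above all of H2. Its log2 fold change of -1.28 ± 1.13 (SE) was no DEG (adjusted p = 0.61). Genes with 0 counts in one library of a stage and over 20 in another numbered 297 at H1 and 230 at H2. The pectin esterase PCP011895, which prepares pectin for degradation, had no count at H1 or H2. COBRA-like PCP011926, of a family known in Arabidopsis for the orientation of cellulose, was at 94.3 ± 6.8 CPM and 91.8 ± 3.09 CPM (adjusted p = 0.82).

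Of the 4 aroma genes AAT and HPL rose in the first week, and LOX and ADH were not DEGs. AAT (PCP024687), the acyltransferase that joins an alcohol and an acyl group into an ester, was at 27.1, 26.3 and 30.7 CPM at H1 and at 80.3, 82.1 and 81.2 CPM at H2. The libraries of each stage lay close together and the stages were far apart. AAT rose 2.90-fold in mean CPM, with a log2 fold change of 1.53 ± 0.16 (SE, adjusted p = 1.7e-04, edgeR). The H2 value of 81.2 ± 0.881 CPM (SD, n = 3) was followed by 134 ± 21.8 at H3 and 558 ± 123 at H4.

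HPL (PCP012365), the hydroperoxide lyase that splits fatty acid hydroperoxides into aldehydes, was at 6.06, 4.77 and 5.01 CPM at H1 and at 14.3, 12.5 and 11.5 CPM at H2. The stages did not overlap, and the rise was 2.42-fold in mean CPM (log2 fold change 1.27 ± 0.14 SE, adjusted p = 1.9e-04, edgeR). The calls of ERF2, PG, AAT and HPL were made in all 19 alternative settings. LOX (PCP002320), the lipoxygenase that makes the substrate of HPL, was at 3.28, 1.41 and 2.63 CPM at H1 and at 1.57, 2.27 and 3.27 CPM at H2, with overlapping libraries and a log2 fold change of -0.03 ± 0.38 (adjusted p = 0.99). Its 95% interval was wide, from -0.76 to 0.71. ADH (PCP031262), an alcohol dehydrogenase that turns aldehydes into the alcohols used by AAT, had 0, 2 and 0 counts at H1 and 7, 2 and 0 at H2, too few to tell the stages apart (adjusted p = 0.43).

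The DEGs among the auxin genes moved in both directions and by less than 1.5-fold. Of 9 tested genes, 2 were higher at H2, 1 was lower and 6 were not DEGs. The IAA-like auxin responsive factor PCP012166 was at 82.7, 92.7 and 83.7 CPM at H1 and at 119.6, 119 and 115 CPM at H2, without overlap. It rose 1.36-fold (log2 fold change 0.45 ± 0.06 SE, adjusted p = 0.0013, edgeR). The auxin-induced proteins PCP019182 and PCP036703 went opposite ways. PCP019182 was at 17.2, 17.8 and 15.5 CPM at H1 and at 24.8, 20.6 and 23.7 CPM at H2 (0.45 ± 0.11, adjusted p = 0.032). PCP036703 was at 38.2, 46.7 and 43.3 CPM at H1 and at 31.8, 34.0 and 32.6 CPM at H2, and it fell by 0.38 ± 0.07 on the log2 scale (adjusted p = 0.0081). In both, the 3 libraries of one stage were above the 3 of the other. The call of PCP019182 was lost without H1 replicate 1 or 3 or H2 replicate 1 or 3 (adjusted p = 0.075 to 0.12), and both calls were lost with the 6 libraries of H1 and H2 alone (adjusted p = 0.051 and 0.052).

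The remaining auxin genes gave no call. Aux/IAA PCP003908, the auxin gene among the study's candidates, was at 54.1 ± 4.35 CPM at H1 and 54.5 ± 3.04 CPM at H2 (SD, n = 3), and the 95% interval of its log2 fold change, -0.13 to 0.15, is narrow. The Auxin Response Factor PCP022634, of the family of factors that bind auxin response elements, was at 84.4 ± 6.07 and 82.5 ± 6.91 CPM. PIN3 (PCP021016), a carrier that exports auxin from the cell, was at 5.59 ± 0.80 and 4.46 ± 1.14 CPM (adjusted p = 0.47). The auxin-induced proteins PCP011951 and PCP022563 and the auxin responsive proteins PCP012330 and PCP029646 had at most 10 counts in any of the 6 libraries.

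Of the other transcription factors, 1 of 5 was a DEG. MADS PCP007024, of the family that holds the ripening regulator RIN of tomato, was at 12.1, 10.7 and 12.1 CPM at H1 and at 18.1, 16.1 and 14.3 CPM at H2. All H2 libraries were higher, and the log2 fold change was 0.47 ± 0.11 (SE, adjusted p = 0.019, edgeR). The call was lost without H1 replicate 2, H2 replicate 1 or H2 replicate 2 (adjusted p = 0.054 to 0.080), with DESeq2 (0.052) and with the 6 libraries of H1 and H2 alone (0.075). The NAC genes PCP007739 and PCP013432, of a family that is plant-specific, were at 2.13 ± 1.24 and 3.00 ± 1.05 CPM at H1 and at 1.32 ± 0.65 and 2.11 ± 0.47 CPM at H2 (adjusted p = 0.51 and 0.43). The squamosa binding proteins PCP036084 and PCP011929 were at 12.3 ± 1.0 and 11.2 ± 1.9 CPM at H1 and at 10.8 ± 1.14 and 9.03 ± 0.32 CPM at H2, and neither passed the test (adjusted p = 0.87 and 0.32).

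The genes with the largest rise were detected at H2 and scarcely before or after. Among DEGs not named by the study, with a mean of at least 1 CPM and stages that do not overlap, PCP043140 and PCP015306 had the largest rise of the mean of log2(CPM + 1). PCP043140 had no count in any H1 library and was at 15.3, 16.5 and 17.2 CPM at H2, at least 45.4-fold higher than at H1 with H1 set to the floor of 3 counts per library (adjusted p = 7.4e-04, edgeR). At H3 and H4 it returned to at most 7 counts per library. PCP015306 also had no count at H1, was at 10.4, 10.6 and 15.5 CPM at H2, at least 33.8-fold higher (adjusted p = 2.4e-04), and had at most 10 counts per library thereafter.

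The largest falls were PCP013468 and PCP039844. PCP013468 was at 4.29, 15.7 and 17.9 CPM at H1 and at 1.93, 2.14 and 1.64 CPM at H2. H1 replicate 1 lay far below the other H1 libraries, yet above all of H2, and the gene fell by 2.73 ± 0.55 on the log2 scale (SE, adjusted p = 0.011, edgeR). It lost the call without H2 replicate 3 (adjusted p = 0.052). PCP039844 was at 4.04, 3.14 and 3.13 CPM at H1 and had 1, 2 and 1 counts at H2, all of them under the floor (adjusted p = 0.022). With H2 set to the floor of 3 counts per library the fall was 9.46-fold, and the fitted log2 fold change, which rests on these few counts, had a 95% interval of -6.26 to -2.32. Without H1 replicate 1 or any one H2 library this call was lost (adjusted p = 0.058 to 0.089). At H3 PCP039844 had 19, 3 and 21 counts, again unlike between replicates.

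Genes detected at only one of the 2 stages were few and about as many on either side. With over 3 counts in every library of one stage and at most 3 in every library of the other, 74 genes were detected at H2 alone and 73 at H1 alone. Their levels were low, with a median of 8.67 counts per library for the first and 6.33 for the second. Of the H2 genes 35 passed the filter and 28 were DEGs, and of the H1 genes 15 passed and 4 were DEGs. Both lists were chosen by the values of this contrast, so these counts are a description. A gene not detected at a stage can pass the filter only through libraries of the other stages. The counts of DEGs are therefore in part fixed by choice and filter, and 28 against 4 is no comparison of H2 with H1. Over all genes tested 3.94% were higher and 3.17% lower at H2. The H3 libraries were not used in choosing the lists. In all 3 of them 30 of the 74 genes were at or below the floor and 16 were above it, and of the 73 genes 20 were at or below it and 13 above it.

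The study sorted its DEGs over the 4 stages into 11 clusters and drew up lists of genes correlated with firmness, all on these libraries. The directions below are therefore fixed by that choice in part, and for the firmness lists largely, and were not tested. Of the 1646 DEGs between H1 and H2, 1547 are in the clusters. Of the 8777 cluster genes tested 9.76% were higher and 7.86% lower, beside 3.94% and 3.17% over all genes tested. The large clusters 5, 6 and 1, which hold most of these genes, moved both ways. In cluster 5, 332 (12.3%) were higher and 271 (10.1%) lower of 2689 tested. In cluster 6 these were 311 (9.28%) and 242 (7.22%) of 3352, and in cluster 1 they were 148 (7.52%) and 151 (7.67%) of 1969. The medians of these clusters were within 0.04 of zero on the log2 scale. The small clusters 3 and 10 hold 45 genes each, of which 35 and 19 passed the filter. Of these, 9 were higher and none lower in cluster 3, and 15 were higher and none lower in cluster 10. Their medians were 2.81 and 6.83 on the fitted log2 scale, and 1.17 and 2.42 with genes not detected at one stage at their bound. A gene scarcely detected at H1 passes the filter only if it is higher at another stage. These counts and medians are therefore in part fixed by the filter as well. Cluster 9 had 17 higher (9.14%) and 5 lower (2.69%) of 186. Cluster 8 had 15 higher (4.36%) and 18 lower (5.23%) of 344 with a median of -0.47, shares below those of all cluster genes. Cluster 7 had 10 higher (9.17%) and 2 lower (1.83%) of 109 although its median was -0.55. Of cluster 11, 12 of 68 genes passed the filter and none was a DEG.

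The mean level per library, which needs no filter, separated the stages in clusters 3, 6, 7, 8, 9, 10 and 11, in clusters 6, 7 and 9 by a small margin. In clusters 1, 2, 4 and 5 the libraries of the stages overlapped, and in cluster 2 the mean was 0.07 to 0.15 at H1 and 0.10 to 0.11 at H2, with 1 gene lower and none higher of 38 tested. The mean of log2(CPM + 1) over the genes of cluster 3 was 0.19 to 0.20 at H1 and 0.84 to 1.01 at H2, that of cluster 10 was 0.19 to 0.23 and 1.21 to 1.37, and that of cluster 11 was 0.88 to 0.93 and 0.35 to 0.40. Cluster 11 was thus lower at H2 in every library, with no gene of it a DEG. Cluster 8 lay at 1.88 to 1.96 at H1 and 1.64 to 1.70 at H2. For cluster 9, H1 replicate 2 at 1.0 was close to H2 replicate 2 at 1.05. Without H1 replicate 2, cluster 3 had 7 genes higher and cluster 10 had 13.

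**Figure D4:**
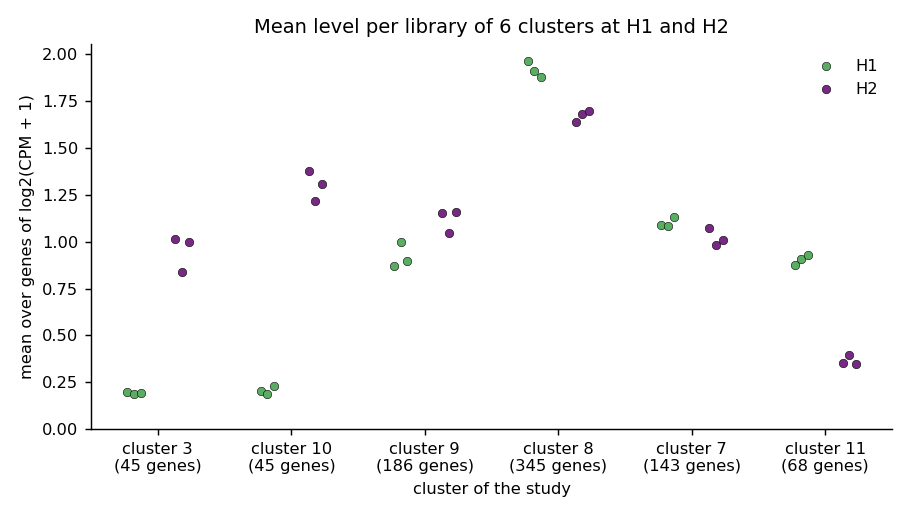
Mean over the genes of a cluster of log2(CPM + 1) in each library (vertical axis) at H1 (green) and H2 (purple), for 6 of the 11 clusters of the study (horizontal axis, with the number of genes). Clusters 3 and 10 are higher in all 3 H2 libraries, and clusters 8 and 11 are lower in all 3 of them.

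The firmness lists moved in 1 direction each. Their genes were chosen for a strong correlation with firmness over these same stages, so the directions and shares follow largely from that choice. Of the genes listed as negatively correlated with penetrometer firmness, that is higher in softer fruit, 182 of 490 tested (37.1%, beside 3.94% over all genes tested) were higher at H2 and none was lower, with a median of 0.31. Of the positively correlated genes 67 of 553 (12.1%, beside 3.17%) were lower and none was higher, with a median of -0.31. For the maximum force of the texture analyser the counts were 42 of 139 higher (30.2%) and 25 of 217 lower (11.5%). Of the genes that the study names from the first list, ACO PCP009685, auxin-induced protein PCP019182, the IAA-like factor PCP012166, pectate lyase3 and MADS PCP007024 were DEGs. ACO PCP022491, the xyloglucan endotransglucosylase hydrolase PCP016523 and APETALA2 PCP005843 were not. From the second list auxin-induced protein PCP036703 was a DEG, and the AP2 factor PCP016390 did not pass the filter and was not tested. The other genes that the study names from this list were tested and were not DEGs. Without H1 replicate 2 the counts for penetrometer firmness were 142 higher and 58 lower.

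The last week of harvest, H3–H4 (weeks 3 to 4 of the labels), shares no library with the first. It held 2540 DEGs that rose (11% of the genes tested) and 2201 that fell (9.51%), against 912 and 734 in the first week. The interval between them, H2–H3, shares the H2 libraries with the first week and held 690 DEGs that rose (2.98%) and 546 that fell (2.36%). By the study's dates it was longer than the first or the last week. The change of H3–H4 differed from that of H1–H2 in 2462 genes (10.6% of the genes tested, contrast of both changes in the same model). Of the 912 genes that rose in the first week 313 (34.3%) rose and 134 (14.7%) fell in the last week, and of the 734 that fell 251 (34.2%) fell again and 100 (13.6%) rose. The shares in the opposite direction, 14.7% and 13.6%, were thus also above the 9.51% and 11% over all genes tested. Both weeks were tested in a single fit with a shared estimate of spread per gene, so their calls are not independent. The 313 and 251 genes are 12.3% and 11.4% of the genes that rose and fell in the last week. Without H1 replicate 2 these shares of the first-week genes were 40.1% rising again and 39.5% falling again.

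ERF2, PG, AAT and HPL rose in both weeks. ERF2 rose by 3.68 ± 0.24 in the first and 3.96 ± 0.22 in the last on the log2 scale (SE), and the difference of 0.28 ± 0.36 did not pass the test (adjusted p = 0.70). For PG the difference was 0.32 ± 0.41, for AAT 0.53 ± 0.22 and for HPL 0.48 ± 0.18 (adjusted p = 0.71, 0.16 and 0.11), and none of them passed. ACO PCP011683, ERS1, ERF PCP011831, LOX and Aux/IAA, none of them a DEG in the first week, rose in the last week and did so by more than in the first, with differences of 3.71 ± 0.33, 1.18 ± 0.25, 2.38 ± 0.40, 2.27 ± 0.50 and 0.39 ± 0.10 (adjusted p = 3.1e-05, 0.010, 0.0024, 0.012 and 0.023). The IAA-like factor PCP012166 behaved the other way round. It rose by 0.45 ± 0.06 in the first week, its log2 fold change in the last was 0.04 ± 0.06, and the difference of -0.40 ± 0.09 passed the test (adjusted p = 0.013). The plot of both weeks shows these pairs of changes gene by gene.

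**Figure D5:**
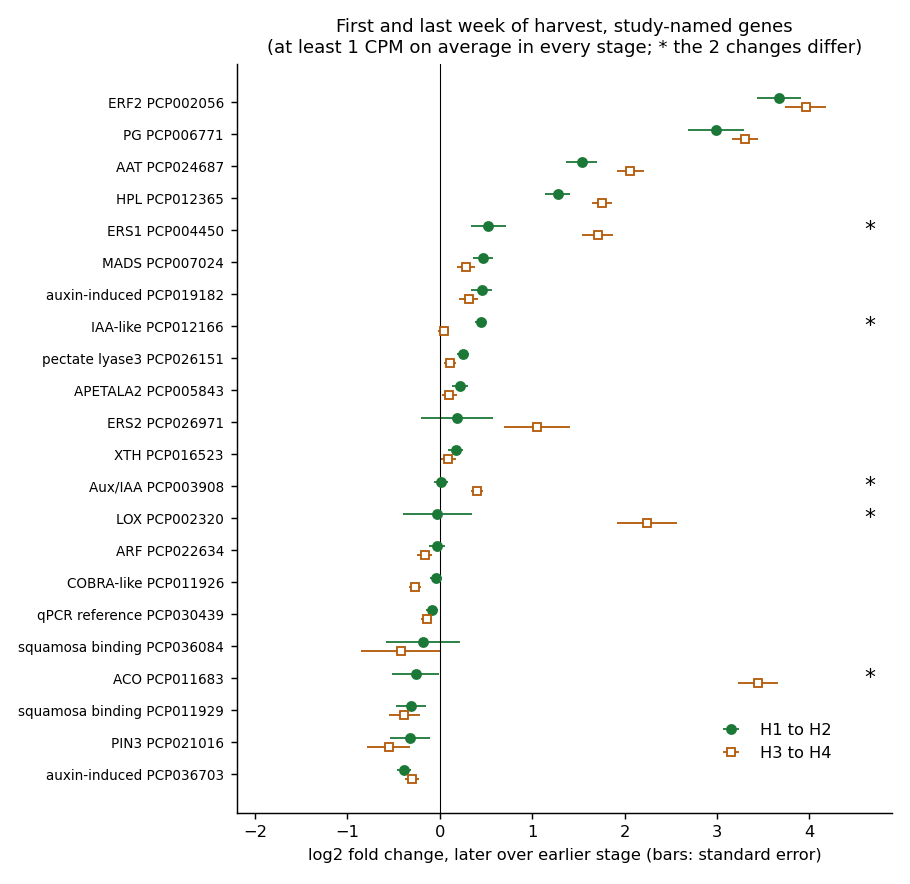
Log2 fold change with its standard error (horizontal axis) of the study-named genes with a mean of at least 1 CPM at every stage (vertical axis), from H1 to H2 (green circles) and from H3 to H4 (open orange squares), with an asterisk where the 2 changes differ by the test. ERF2, PG, AAT and HPL lie far to the right in both weeks, whereas ACO PCP011683 and LOX do so in the last week only.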

How the data were processed

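RNA from peeled pear flesh was measured in 12 single-end libraries that do not keep the strand, so overlapping and antisense genes cannot be separated. Near-identical copies cannot be separated either, which does not depend on the strand. The labels and the methods of the study give different library kits, sequencers and read lengths. According to the study's methods and the submitters' processing notes reads were cleaned by the authors (Scythe, Sickle), mapped to the pear genome (HISAT2), quantified (StringTie) and compared between stages (DESeq2). Versions, the genome build and the step from StringTie to counts are not given in the sources used here. The deposited library values are raw counts per gene, not normalized by the authors, although the table is named for FPKM: all are whole numbers. The 4 deposited stage columns, a signal that equals the mean of 3 counts, were used for this check only.

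The counts entered edgeR 4.0.16 under R 4.3.3 (quasi-likelihood test after TMM scaling, 12 libraries in a single fit by stage, at least 1 CPM in at least 3 libraries, Benjamini-Hochberg adjustment over all genes tested, threshold 0.05) after the code was tested on simulated data. Standard errors were derived from the F statistic and are approximate. The 95% intervals made from them use normal quantiles and are somewhat too narrow for so few libraries. A contrast tested H3–H4 minus H1–H2. Alternatives were no filter, a filter of 5 CPM, total-count and median-ratio scaling, DESeq2 1.42.0, only the 6 libraries of H1 and H2, the replicate number as a block, each of the 12 libraries left out in turn, a floor of 10 counts and a pseudocount of 0.5. Floors cover counting error only. Tables and figures were made in Python 3.11.15.

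The genes named are all those that the study's text names with an identifier, its candidate genes and its reference gene for RT-qPCR. Added to them were the 2 largest rises and 2 largest falls of the mean of log2(CPM + 1) among other DEGs with a mean of at least 1 CPM and stages that do not overlap. Cluster and firmness lists were read from the study's supplement. No identifier matched the RefSeq gene table, so no sequence or position is shown. The genes, lists and tests were chosen with earlier results of these data known. Replicates of a stage differed by more than sampling noise (chi-square per degree of freedom 2.49 to 8.10), and all were kept as separate samples.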

Additional observations from a re-analysis of the deposited data

Results flagged for a closer look

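The genes below changed by different amounts in the first and the last week of harvest by the contrast of both changes over the 12 libraries (edgeR's quasi-likelihood test). The value is the log2 change of H3–H4 minus that of H1–H2. ACO PCP011683 gave 3.71, LOX PCP002320 2.27, ERF PCP011831 2.38 and ERS1 PCP004450 1.18, and each rose in the last week without being a DEG in the first. Aux/IAA PCP003908 gave 0.391. The IAA-like factor PCP012166 gave -0.405, with a rise in the first week and no call in the last. The genes PCP043140 and PCP015306 gave -9.78 and -7.57. These are fitted against H1 libraries without a count and are no measure of size, and both genes had 0 to 10 counts per library at H3 and H4.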

How the results depend on the processing

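Of the named genes 8, none of them a DEG, changed sign when 1 library was left out, and no other named gene changed sign in any alternative. Their log2 fold changes then ran from -0.0935 to 0.55 (ERS2), -0.0253 to 0.0752 (Aux/IAA), -0.0879 to 0.0321 (Auxin Response Factor), -0.0777 to 0.0162 (COBRA-like), -0.34 to 0.25 (LOX), -3.24 to 0.39 (PCP012330), -1.95 to 1.18 (PCP011951) and -0.70 to 0.0340 (expansin-like PCP023195). With 1 of the 12 libraries left out the DEGs numbered 957 to 1597 (526 to 890 higher, 431 to 707 lower), those over 2-fold 108 to 145 higher and 53 to 82 lower, the genes that differ between the weeks 1769 to 2637, the 100 most abundant genes 9 to 14 higher and 19 to 31 lower, and the study-named genes 6 to 9 higher. The lowest counts of DEGs came without an H2 library. With the 6 libraries of H1 and H2 alone there were 970 DEGs (504 higher, 466 lower), with 0 study-named genes lower and 20 of the 100 most abundant lower. The 5 CPM filter, which tests fewer genes, left 87 genes over 2-fold higher and 43 lower. A pseudocount of 0.5 gave 5.07 (PCP043140), 4.64 (PCP015306), -2.57 (PCP039844) and -2.24 (PCP013468). DESeq2 gave 1458 DEGs, no filter 1408, median-ratio scaling 1643 and total-count scaling 1663. The cause of these differences was not tested further. The counts of study-named and most abundant genes under these settings were chosen after seeing the data.

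Replicate numbers did not pair the samples: deviations of same-numbered libraries correlated at 0.03, 0.00 and -0.00. A replicate block gave 1521 DEGs (834 higher, 687 lower), 1407 of them shared, and ACO PCP009685 and pectate lyase3 lost their calls. With a floor of 10 counts 81 genes were detected at H2 alone and 70 at H1 alone. Depth limits genes of few counts, such as ACS, ADH and ERF1.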
